A study of Homo sapiens with 14 samples.

Results

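The EED peaks of DU145 cells are described here, as called by the authors in 1 ChIP-seq library of cells with a stable EED knockdown and in 1 library of control cells. Every peak of both lists was taken, which gave 14454 of the 227479 peaks in the 14 libraries of the study: 1372 from the knockdown cells and 13082 from the control cells. Chromatin immunoprecipitation followed by sequencing (ChIP-seq) recovers the DNA that a protein or histone mark sits on, and a peak is a stretch of the genome where the recovered reads pile up. DU145 is an established human prostate cancer cell line. The knockdown cells carried a construct titled sh3 and the control cells a Scramble construct, and both were selected with puromycin and kept in RPMI 1640 with serum and selection antibiotics. The titles name 1 knockdown construct, so its own effects cannot be told apart from those of EED. The labels state neither the promoter that drives the construct nor the number of clones, and no level of EED RNA or protein was analysed here to check the label. The other 6 antibodies of the study, used below for comparison, were 2 antibodies to ubiquitylated histone H2A (uH2A rabbit and uH2A mouse) and antibodies to RING1A, RING1B, BMI1 and H3K27me3.

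EED belongs to the core of PRC2, the Polycomb complex in which EZH2 methylates lysine 27 of histone H3. An aromatic cage of EED binds trimethylated lysine 27 (H3K27me3), and that contact stimulates the enzyme, so EED both supports the placing of the mark and reads it. RING1A and RING1B are the ubiquitin ligases of complex PRC1, which marks histone H2A, and BMI1 is a partner subunit of PRC1.

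With 1 library in each group, none of the differences below was checked on replicates, and no p-value was computed. Intervals are at the 95% level, cover counting error only and treat peaks as independent, although neighbouring peaks can share a source. The labels and files hold no read totals, so the depth behind the lists is unknown and a ratio of peak numbers cannot be separated from a difference in depth. EED and the uH2A antibodies formed 1 set of lists by how chromosomes are written. Those of the other 4 antibodies formed a second set, in which 3.91% to 22.5% of peaks had a listed height of 0, against none in the first.

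The knockdown list was shorter, and most of its peaks stood where the control list also had one. The ratio of peak numbers was 0.105 (interval 0.0991 to 0.111). In knockdown cells the EED peaks covered 0.198 Mb, against 2.13 Mb in control cells. Of the 13082 control peaks, 757 shared at least 1 bp with a knockdown peak and are called kept. That share was 5.79% (5.39 to 6.20), against 11.5% of control peaks pooled over the other 6 antibodies. Taken singly these ran from 3.81% for H3K27me3 and 4.07% for RING1A to 28.8% for uH2A rabbit, so EED lay inside their range. The 12325 others are called lost. Of the 1372 knockdown peaks, 784 lay on a control peak and are called residual, which was 57.1% (54.5 to 59.8). Pooled over the other 6 antibodies 61.4% of knockdown peaks were residual, and singly 32.4% for H3K27me3 up to 74.99% for BMI1, a range that includes EED. The remaining 588 are called new. The kept share depended on which peaks were counted: it was 28.6% among as many of the tallest control peaks as there were knockdown peaks.

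Most EED peaks were short, and the shortest ones made up a larger share of the knockdown list. The median length was 125 bp in both lists, with quartiles of 75 and 175 bp in knockdown cells and of 100 and 200 bp in control cells. Lengths are multiples of 25 bp, and the shortest listed length, 75 bp, made up 27.8% of knockdown peaks (25.5 to 30.3) and 20.3% of control peaks (19.6 to 21.002). Peaks of at least 300 bp made up 6.34% of the knockdown list (5.11 to 7.76) and 8.10% of the control list (7.63 to 8.58). The longest knockdown peak was 875 bp and the longest control peak 2125 bp. No knockdown peak reached 1000 bp, against 20 control peaks, of which 8 were kept and 12 lost.

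Within each list, the shared peaks were the longer ones. Residual peaks had a median length of 150 bp and new peaks one of 100 bp. At the shortest length stood 18.0% of residual peaks and 41.0% of new peaks. Kept peaks had a median length of 250 bp, against 125 bp for lost peaks, and 38.2% of kept peaks (34.7 to 41.7) but 6.25% of lost peaks (5.83 to 6.69) reached 300 bp. Read the other way, the residual share was 36.9% at 75 bp and 93.1% at 300 bp or more, where 81 of 87 knockdown peaks were residual. The kept share was 1.02% at 75 bp and 27.3% at 300 bp or more. A longer peak has more bases on which an overlap can fall, and the part of this in the shares was not tested. With the listed offset position of a peak required to lie inside the other peak, a rule that gives length less room, 55.3% of knockdown peaks were residual and 5.58% of control peaks were kept.

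The lists give an offset for each peak, taken here as the position of its highest point counted from the start. The offset lay past the middle in most peaks of both lists, in 76.5% of knockdown peaks (74.2 to 78.7) and 80.1% of control peaks (79.4 to 80.8). As a share of peak length its median was 64.5% in knockdown cells and 67.0% in control cells. The shift was largest in the shortest peaks, where the median was 73.3% of the length in knockdown cells and 78.0% in control cells. In peaks of 400 bp or more it was 47.0% in knockdown cells and 55.0% in control cells. Since the medians of all 14 lists lay between 55.0% and 69.6%, a position past the middle was not particular to EED.

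**Figure D1:**
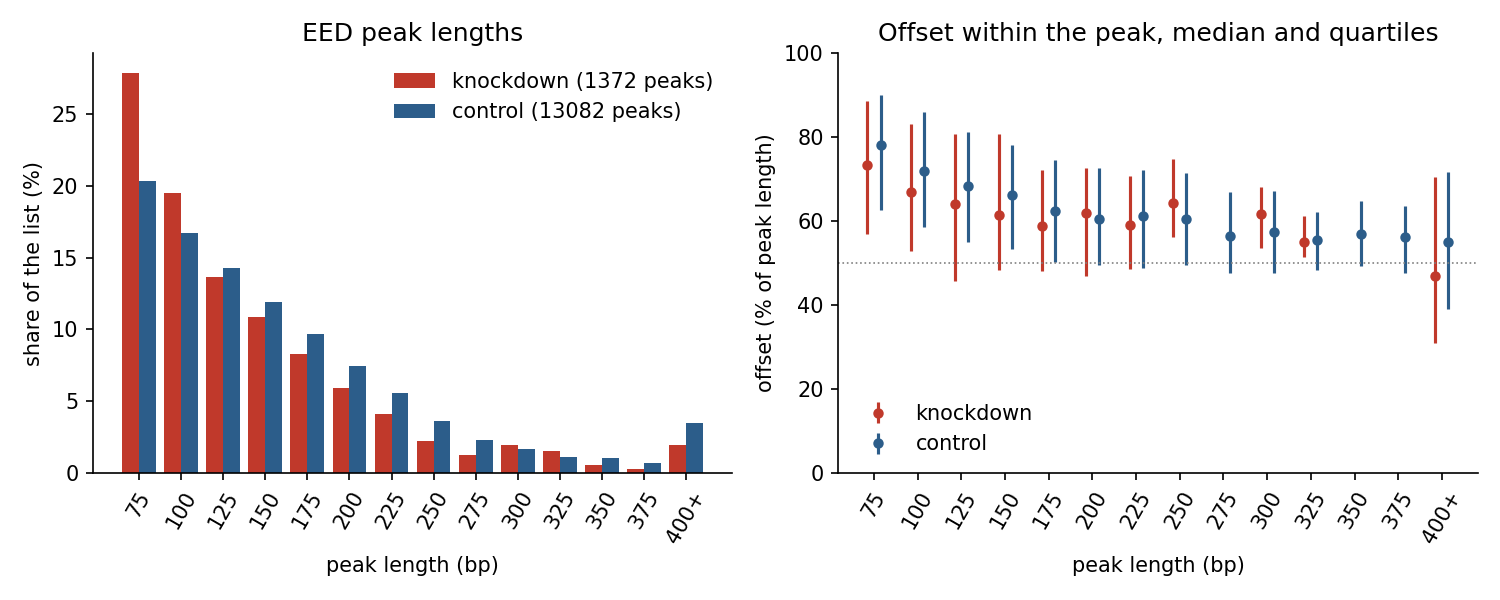
Left, share of each EED list (vertical axis, percent) at each peak length (horizontal axis, bp), with knockdown bars in red and control bars in blue. Right, offset as a percent of peak length by length, with points at the median and lines over the quartiles for lengths with at least 20 peaks, and a dotted line at the middle of the peak. The knockdown bar is the taller one at 75 bp, at 27.8% against 20.3%, and medians lie nearer to the middle in longer peaks.

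Tall peaks were shared more often than low ones, in both directions. Height is the authors' value for each peak, with a median of 35 in knockdown cells and 32.4 in control cells. Here it ranks peaks within a list. Heights of both lists are also set side by side at named sites and in pairs below, as listed, although the lists were made separately and at unknown depth, so such a comparison shows no change in binding. Of the lowest height decile of knockdown peaks 23.2% were residual (16.4 to 31.1), and of the tallest decile 77.4% (69.4 to 84.1). In the control list the kept share was 1.53% in the lowest decile (0.936 to 2.35), 9.79% in the ninth (8.23 to 11.5) and 29.2% in the tallest (26.8 to 31.7). Of the 757 kept peaks, 382 came from that tallest decile. Kept peaks had a median height of 45.2 and lost peaks one of 32.2. Length and height went together, with a Spearman coefficient across peaks of 0.68 in knockdown cells and 0.76 in control cells, given as a description. Within the tallest decile of control peaks, 36.6% of those of at least 300 bp were kept (32.9 to 40.3), against 21.5% of the shorter ones (18.3 to 24.9).

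**Figure D2:**
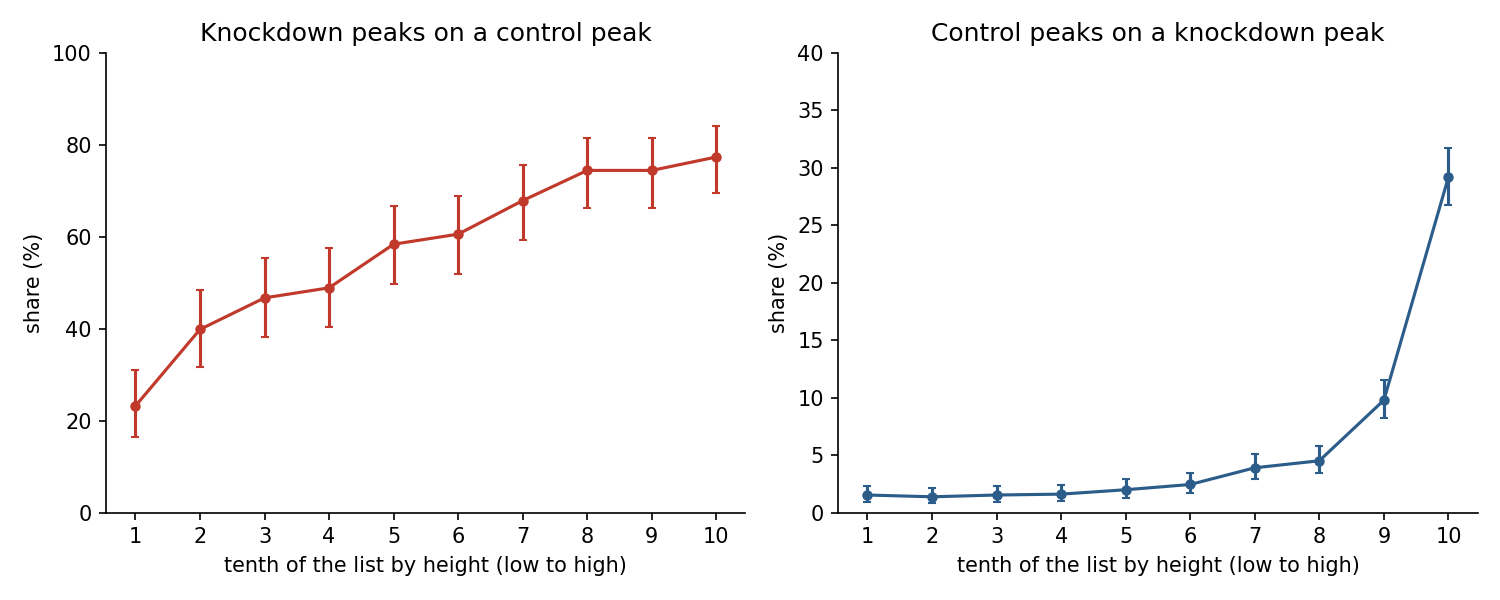
Left, share of knockdown EED peaks lying on a control peak, and right, share of control EED peaks lying on a knockdown peak (vertical axes, percent, with different ranges), by decile of the list ordered by height, low to high (horizontal axis). Points are shares and bars exact 95% intervals for counting error. The residual share is 23.2% in the lowest decile and 77.4% in the tallest, and the kept share stays under 10% up to the ninth decile and is 29.2% in the tallest.

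Where a control peak was kept, the knockdown peak on it was usually narrower and stood at nearly the same point. There were 792 overlapping pairs of 784 residual and 757 kept peaks. The knockdown peak was the shorter one in 633 pairs (79.9%, 77.0 to 82.7), of equal length in 61 and longer in 98. In these pairs the median length was 150 bp for knockdown peaks and 250 bp for control peaks, although both whole lists had a median of 125 bp. Kept peaks were longer than control peaks as a whole, and the depth of the lists is unknown. The part of either in the length contrast was not tested. The listed offset positions were a median of 36.5 bp apart, and in 59.97% of pairs (56.5 to 63.4) they lay within 50 bp of each other. Start and end were identical in 24 pairs. On 33 control peaks stood at least 2 knockdown peaks, and on none more than 3. The ratio of listed heights, knockdown over control, had a median of 0.862 and ran from 0.253 to 8.20 over pairs.

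The 5 longest control peaks serve as examples of broad sites. They were chosen for their control length, which favours a longer, and with it a taller, peak in the control list. The longest, chr7:16437851-16439975 (hg19, as are all positions here), spanned 2125 bp and held 1 knockdown peak of 150 bp, with a height of 34.96 in knockdown cells against 83.4 in control cells. At chr3:195511551-195513325, 1775 bp long, there were 3 knockdown peaks, the tallest at 56.7 against 110 for the control peak. At chr5:1464601-1466175, 1575 bp long, there were 2, the taller at 52.9 against 113. The other 2 of the 5 longest were lost: chr17:80276126-80277775, whose nearest knockdown EED peak was 252275 bp away, and chr16:1787826-1789425, which had one 800 bp away. All 5 carried uH2A rabbit and BMI1 peaks in both cell lines.

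A small set of windows held many of the tallest EED peaks of both lists, and control peaks in them were kept more often than elsewhere. They are called high-signal windows here: stretches of 100 kb where at least 2 of the other 6 antibodies had a peak more than 10 times as tall as the median one of its library, plus the adjoining stretch on either side. There were 115. They held 80 knockdown peaks, or 5.83% of that list, and 144 control peaks, or 1.10%. The ratio of EED peak numbers was 0.556 inside them (0.417 to 0.735) and 0.0999 outside (0.0942 to 0.106). Inside, 39.6% of control peaks were kept (31.5 to 48.1), and outside 5.41% (5.03 to 5.81). Of the 50 tallest peaks, 70.0% of the knockdown ones and 36.0% of the control ones lay in these windows. The windows were set by the height of other antibodies, and what sequence they hold was not analysed here.

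The tallest residual peak, chr7:61968801-61969500, had a height of 1752 in knockdown cells, against 289 for the taller of the 2 control peaks there. Below it, chr1:121484551-121485375, had 1413 in knockdown cells against 596 in control cells. Next came chr21:9826926-9827525, had 1073 against 956. The others of the 5 tallest were chr10:42395851-42396200, at 691 against 371, and chr1:91852776-91853100, at 672 against 532. These 5 were chosen for their knockdown height, which favours a higher value there. All lay in high-signal windows. All but chr1:121484551-121485375 carried peaks of all 6 other antibodies in both cell lines. That peak carried 3 of them in knockdown cells and 2 in control cells. The 5 tallest kept control peaks were those at the last 4 of these 5 sites and chr16:46403476-46403825, at 536 in knockdown cells against 335 in control cells. The ratio of listed heights in pairs had a median of 1.05 inside the windows and 0.854 outside, with the limit on comparing heights given above. The knockdown peak was the shorter one in 56.1% of pairs inside (42.4 to 69.3) and 81.8% outside (78.8 to 84.5).

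The 5 tallest new peaks also lay in such windows. At chr6:58779001-58779375 the knockdown height was 1071, and the nearest control EED peak was 477625 bp away. Beside it, chr6:58776451-58776700 had 405. The others were chr16:46406751-46407025 with 372, chr7:61970201-61970500 with 257 and chr16:46387326-46387550 with 189, each with a control EED peak 825 to 3825 bp away. In knockdown cells each of these 5 also carried other antibodies, from 3 of the 6 at the chr6 sites to all 6 at chr7:61970201-61970500. In control cells the number ran from 0 at chr6:58779001-58779375 to 6 at chr7:61970201-61970500 and chr16:46406751-46407025. Over all new peaks these 5 were exceptions in height, since the median height was 33.0. The 5 tallest lost peaks lay outside these windows and were far lower, with 102 at chr14:35204151-35204425, 99.4 at chr1:207097376-207097750, 94.3 at chr14:49717426-49718025, 91.7 at chr7:55234276-55235375 and 91.1 at chr17:80239326-80239750. All 5 lost sites had a uH2A rabbit peak in both cell lines. No lost peak was taller than 102, while the tallest kept peak reached 956.

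Knockdown peaks stood farther apart than control peaks, as a list of fewer peaks must, but the knockdown list held more of its peaks in dense groups than as many of the tallest control peaks did. The median gap to the nearest peak of the same list was 37212.5 bp in knockdown cells, against 14450 bp in control cells and 46525 bp among the 1372 tallest control peaks. A neighbour lay within 10 kb for 35.3% of knockdown peaks (32.7 to 37.9), 43.2% of control peaks (42.3 to 44.0) and 30.5% of the tallest control peaks (28.0 to 33.0). Peaks were then chained into groups wherever the gap was at most 10 kb. Groups of at least 3 peaks held 22.7% of knockdown peaks in 53 groups, 24.4% of control peaks in 712 groups and 15.01% of the tallest control peaks in 48 groups. Groups of at least 10 peaks held 8.45% of knockdown peaks (7.04 to 10.1), in 6 groups. They held 4.04% of control peaks (3.71 to 4.39) in 31 groups and 0.875% of the tallest control peaks (0.453 to 1.52) in 1 group. The tallest control peaks had heights of 44.6 or more, a cut that takes lower neighbours out of a group. The knockdown list had no such cut, and the part of this in the contrast was not tested.

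**Figure D3:**
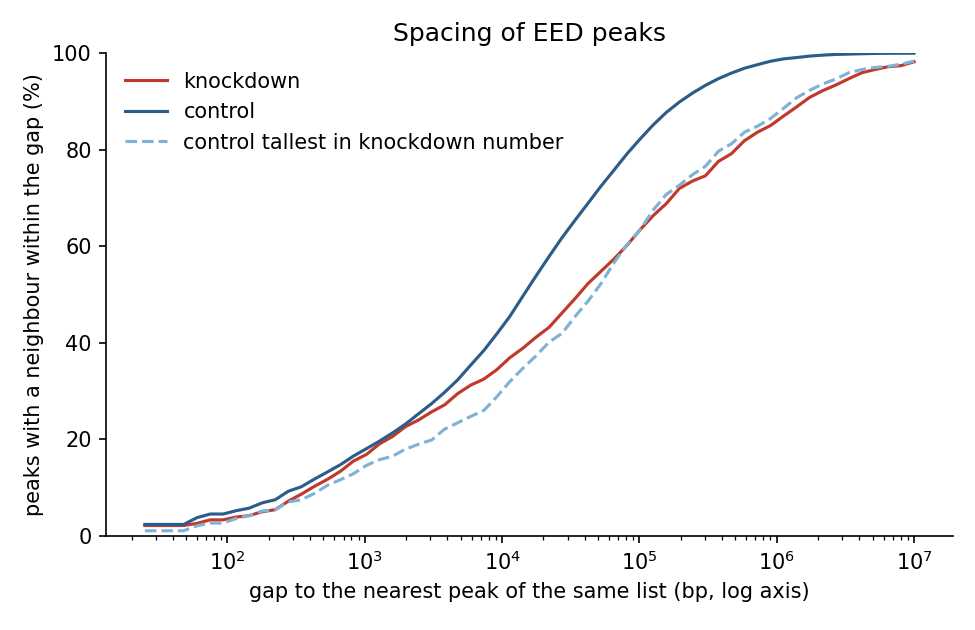
Cumulative share of EED peaks (vertical axis, percent) with a neighbour of the same list within the gap on the horizontal axis (bp, log axis), for the knockdown list, the whole control list and the tallest control peaks in the number of knockdown peaks. At 10 kb the knockdown line is at 35.3%, the control line at 43.2% and the line of the tallest control peaks at 30.5%.

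Control peaks in dense groups were kept more often than single ones. The kept share was 3.36% for single peaks (2.96 to 3.80), 6.04% in pairs, 8.36% in groups of 3 to 9 and 25.8% in groups of 10 or more (22.1 to 29.7). Median height moved with group size, at 31.9 for single control peaks and 37.0 in groups of 10 or more, and its part in the result was not tested. At least 1 peak was kept in 25 of the 31 control groups of 10 or more. The residual share of knockdown peaks was 49.1% for single peaks (45.8 to 52.4) and 72.4% in groups of 10 or more (63.3 to 80.3).

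The 3 largest knockdown groups were at chr2:91759576-91821725 with 32 peaks, 26 of them residual, at chrY:58984401-59025675 with 23 peaks, 9 of them residual, and at chr15:20475276-20516525 with 22 peaks, 20 of them residual. In the same spans the control list had 33, 10 and 26 peaks. The largest control groups were at chr15:22406151-22560675 with 45 peaks, 13 of them kept, at chr15:20445476-20516625 with 37, of which 21 were kept, and at chr2:91757476-91821825 with 34, of which 25 were kept. No peak of these groups lay in a high-signal window, but the spans were not particular to EED. Each of the 3 knockdown spans held peaks of all 6 other antibodies in knockdown cells. In the chr2 span these included 75 RING1A, 66 BMI1 and 54 H3K27me3 peaks. The span of the largest control group held 93 BMI1 and 0 H3K27me3 peaks in control cells. What sequence these spans hold was not analysed here. Dense control groups did not all persist: the fourth largest, at chr18:34938501-35041775, had 31 control peaks and 2 knockdown peaks.

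Counted in bins of 1 Mb, knockdown peaks fell in 480 bins, control peaks in 1908 and the 1372 tallest control peaks in 477. The 10 fullest bins held 18.8% of knockdown peaks, 6.57% of control peaks and 16.3% of the tallest control peaks. To reach 50% of the list took 54 bins in knockdown cells, 214 for all control peaks and 66 for the tallest ones, so most of the gap to the whole control list was absent at equal numbers. The fullest knockdown bin, on chromosome 15 from 20000001 to 21000000, had 43 knockdown and 68 control peaks. The fullest control bin, on chromosome 5 from 1000001 to 2000000, had 14 knockdown and 142 control peaks, of which 9 were kept.

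New peaks lay near control peaks more often than lost peaks lay near knockdown peaks, where the list of candidates is shorter. The median gap of a new peak to the nearest control EED peak was 11287.5 bp, and 47.1% had one within 10 kb (43.0 to 51.2). The median gap of a lost peak to the nearest knockdown EED peak was 432100 bp, and 7.75% had one within 10 kb. For knockdown peaks of the other 6 antibodies that lay off control EED peaks, 31.6% to 45.7% had a control EED peak within 10 kb. The highest of these, for uH2A mouse, had an interval of 44.4 to 46.9, inside that of new EED peaks.

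Peak number was lower in knockdown cells on 23 of 24 chromosomes, but by different amounts. Over the 22 autosomes the ratio of knockdown to control peaks ran from 0.0255 to 0.203, with a median of 0.0865. The highest ratio was on chromosome Y, with 30 knockdown and 18 control peaks, a ratio of 1.67 whose interval of 0.899 to 3.17 includes 1. The 6 other antibodies summed gave 1.03 there. Of these EED peaks on Y, 23 knockdown and 10 control ones lay in the chrY group named above, 41.3 kb long, so the ratio rests largely on 1 place. Chromosome X came next with 2 knockdown and 9 control peaks, too few to place (0.0234 to 1.07). Chromosome 14 had 261 knockdown and 1287 control peaks, a ratio of 0.203 (0.177 to 0.232), and the other 6 antibodies gave 0.211. The lowest ratios were on chromosome 6 with 12 knockdown and 471 control peaks (0.0255, 0.0131 to 0.0449), chromosome 17 with 17 and 617 (0.0276, 0.0159 to 0.0445) and chromosome 20 with 14 and 384 (0.0365, 0.0197 to 0.0619). The intervals of these 3 overlap each other and lie below that of chromosome 14. On the same chromosomes the other 6 antibodies gave 0.108, 0.140 and 0.135, above the EED intervals. Over all chromosomes their summed ratio was 0.195, against 0.105 for EED, and by chromosome it exceeded the EED interval on 19 of 24. The antibodies in that sum differed widely. Taken singly, the ratio was 0.0727 for RING1A, below that of EED, 0.119 for H3K27me3 and up to 0.418 for uH2A rabbit.

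Chromosome 14 held 19.0% of all knockdown EED peaks and 9.84% of control EED peaks. Its density was 2.96 knockdown peaks and 14.6 control peaks per Mb, over the span from the first to the last listed peak of any library. Of its control peaks 12.2% were kept (10.5 to 14.1), against 5.09% on all other chromosomes pooled. Chromosomes 15, with 11.3% (8.77 to 14.4), 21, with 11.2% (8.56 to 14.2), and 4, with 9.96% (7.48 to 12.9), had intervals that overlap that of chromosome 14. Control peaks on chromosome 14 were taller, with a median height of 35.3. By quartile of height, low to high, the kept share on chromosome 14 and on the others was 3.45% and 1.41%, 1.86% and 1.70%, 8.12% and 2.68%, and 22.9% and 15.5%. In the upper 2 quartiles the intervals did not overlap, with 19.3 to 26.7 on chromosome 14 and 14.2 to 16.9 elsewhere in the tallest. In that tallest quartile the kept share was higher still on chromosomes 15 (35.3%), 4 (28.6%), 2 (27.5%) and 21 (23.7%), so a high kept share was not particular to chromosome 14. The number of copies of each chromosome in DU145 was not analysed here.

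**Figure D4:**
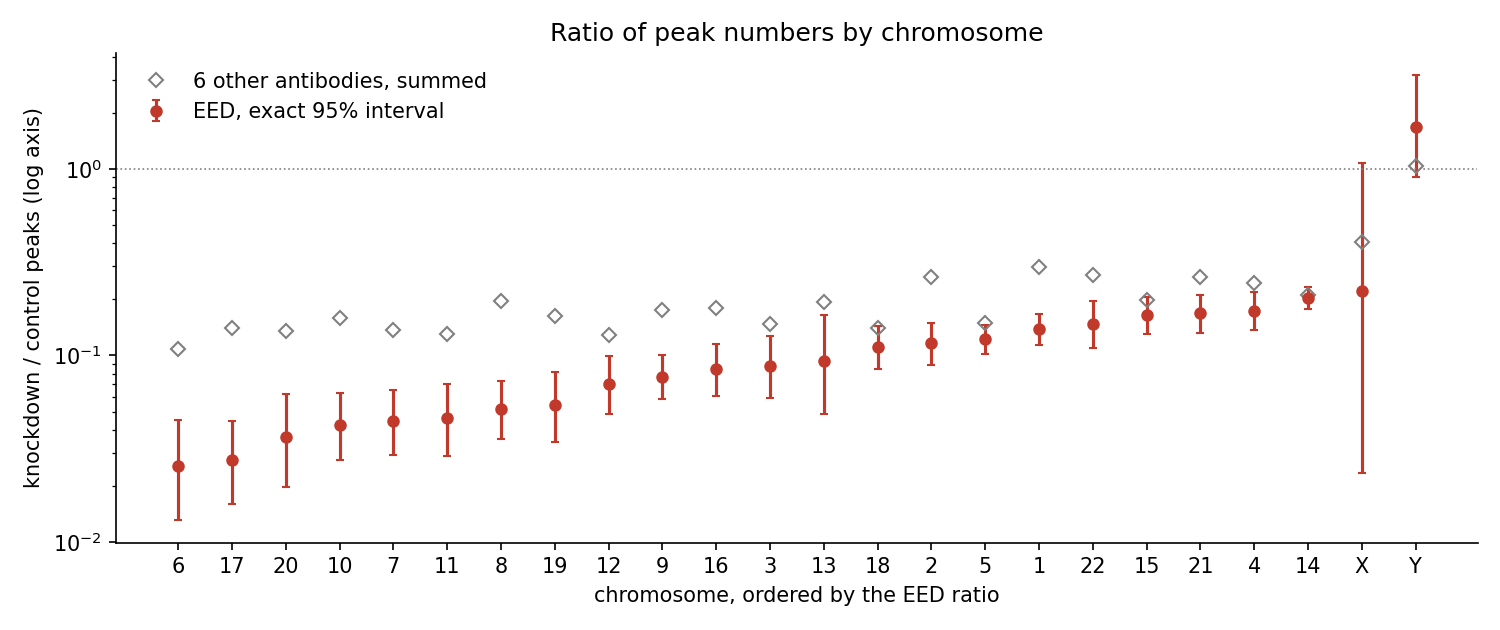
Ratio of knockdown to control EED peaks (vertical axis, log scale) for each chromosome, ordered by that ratio (horizontal axis), with exact 95% intervals for counting error as bars. Grey diamonds give the same ratio for the 6 other antibodies summed, and the dotted line marks a ratio of 1. EED ratios run from 0.0255 on chromosome 6 to 0.203 on chromosome 14 among autosomes, and the interval of chromosome Y crosses 1.

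Kept EED peaks stood on peaks of the other antibodies more often than lost ones, for each of the 6. In control cells BMI1 was present at 80.7% of kept and 24.2% of lost EED peaks, a difference of 56.5 percentage points (53.4 to 59.3). RING1B was present at 40.8% of kept and 3.03% of lost peaks (difference 37.8, 34.3 to 41.3), and RING1A at 68.7% and 34.3% (difference 34.4, 30.9 to 37.7). For uH2A mouse the shares were 65.3% of kept and 31.9% of lost peaks, and for uH2A rabbit 77.5% and 49.1%. H3K27me3, the mark that EED binds, was present at 20.5% of kept and 4.48% of lost peaks, a difference of 16.0 points (13.2 to 19.0). No other peak was present at 3.83% of kept peaks and 29.5% of lost ones. Over all control EED peaks the share was 27.5% for BMI1, 5.22% for RING1B and 5.40% for H3K27me3. Kept peaks were longer than lost ones, with medians of 250 and 125 bp, and taller, at 45.2 and 32.2. A longer peak has more room for an overlap with any list, and the part of length and height was not tested.

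The kept share increased with the number of other antibodies at the site. It was 0.790% of control EED peaks with none (0.530 to 1.13), 2.21% with 1, 7.01% with 3, 42.3% with 5 and 68.5% with all 6, where 76 of 111 were kept (59.0 to 77.0). Height moved with that number, at a median of 30.2 with none and 54.2 with all 6. Within the lowest quartile of height the kept share was 0.466% with none (0.188 to 0.958) and 7.14% with 4 (3.32 to 13.1). Within the tallest quartile it was 2.30% with none (0.848 to 4.94), 24% with 4 and 75.5% with all 6 (65.8 to 83.6). The quartiles did not hold height and length fixed. In the tallest the median height was 39.7 with none and 56.5 with all 6, and the median length 175 and 300 bp. In the lowest the median height was 28 with none and with 4, and the median length 75 and 100 bp. The part of length and height was not tested.

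Residual and new peaks differed in the same direction in knockdown cells. BMI1 was present at 57.4% of residual and 20.7% of new peaks, uH2A rabbit at 51.1% and 21.6%, and uH2A mouse at 39.7% and 6.97%. H3K27me3 was present at 34.4% of residual and 17.2% of new peaks, a difference of 17.3 points (12.7 to 21.7). RING1B differed least, at 11.99% and 7.31% (4.68 points, 1.499 to 7.75). In knockdown cells, no other antibody had a peak at 59.2% of new and 17.3% of residual peaks. Of the 588 new peaks, 185 (31.5%, 27.7 to 35.4) had no peak of another antibody in either cell line. The share under that rule was not computed for the other classes. These 185 had a median length of 75 bp and a median height of 32.0, and 1 of them lay in a high-signal window.

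**Figure D5:**
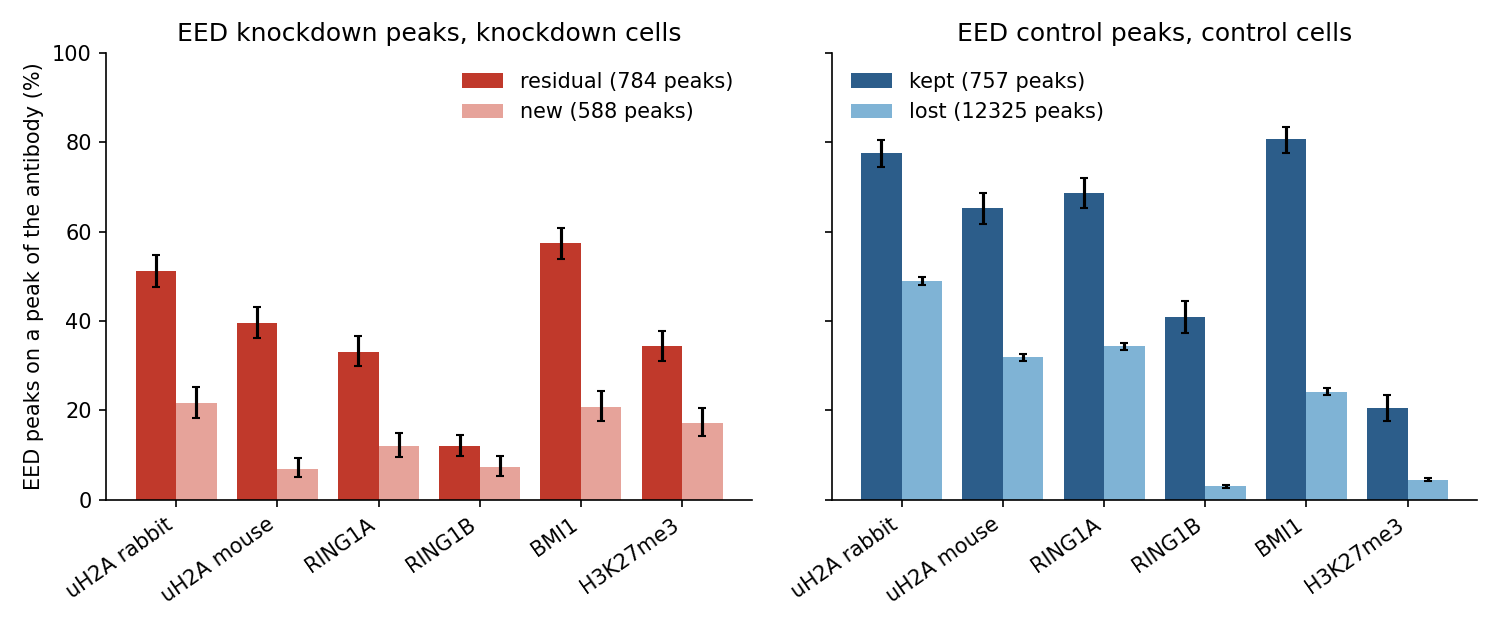
Share of EED peaks (vertical axis, percent) lying on a peak of each other antibody (horizontal axis). Left, residual and new knockdown EED peaks against peaks of knockdown cells, and right, kept and lost control EED peaks against peaks of control cells, with exact 95% intervals for counting error. In both panels the first bar of each pair is the higher one, from 11.99% against 7.31% for RING1B on the left to 80.7% against 24.2% for BMI1 on the right.

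Where EED was lost, uH2A rabbit peaks often were not. Of the control uH2A rabbit peaks on lost EED peaks, 55.3% had a uH2A rabbit peak in knockdown cells (54.0 to 56.6; 3142 of 5677). On kept EED peaks the share was 63.8% (59.8 to 67.7), and off EED peaks 20.6% (20.1 to 21.2). The difference between lost EED sites and sites off EED was 34.7 points (33.3 to 36.1). uH2A rabbit peaks on lost EED sites were taller, with a median height of 45.2 against 35.1 off EED. Within the tallest quartile of uH2A rabbit peaks, 82.4% on lost EED sites (80.9 to 83.8) and 59.0% off EED (57.4 to 60.7) had a knockdown peak. On kept EED sites it was 81.3% there (77.1 to 85.1), not above lost sites. In that quartile the median height was still 64 on lost sites and 52.3 off EED, and the median length 375 and 300 bp. Within the lowest quartile the share was 18.0% on lost sites, 7.64% off EED and 13.9% on kept sites (4.67 to 29.5).

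The other antibodies were mostly gone from lost EED sites. Of their control peaks there, a knockdown peak of the same antibody was found for 20.5% of uH2A mouse, 20.4% of BMI1, 9.92% of H3K27me3, 7.50% of RING1B and 4.24% of RING1A peaks. Off EED the shares were 8.57%, 19.6%, 3.40%, 21.1% and 3.69%. The difference was above 0 for uH2A mouse (11.96 points, 10.7 to 13.3) and H3K27me3 (6.52 points, 4.24 to 9.38), below 0 for RING1B, whose share fell short by 13.6 points, and not separable from 0 for BMI1 and RING1A. Height changed this picture: within the tallest quartile of each antibody's control peaks, the share on lost EED sites was below that off EED for BMI1, at 45.0% (41.7 to 48.2) and 54.9% (53.3 to 56.5), and for RING1A, at 8.63% (7.42 to 9.96) and 12.5% (11.9 to 13.1). Peaks listed at height 0, 6.97% of control BMI1 and 3.91% of control RING1A peaks, rank lowest here. For BMI1 on kept EED sites the lowest quartile had a median height of 0 and a share of 50%, against 24.4% in the second. These quartiles therefore rank listed height only. Over all heights, every antibody named in this paragraph had a higher share on kept EED peaks than on lost ones, from 28.75% of RING1B peaks to 73.1% of H3K27me3 peaks. The antibodies to uH2A differed at lost EED sites, at 55.3% for uH2A rabbit and 20.5% for uH2A mouse, and over all their control peaks the shares kept were 28.8% and 10.7%.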

How the data were processed

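One ChIP-seq library per antibody and cell line was available, 14 in all, sequenced with 40-nucleotide reads. The submitters' processing notes name Bowtie and hg19, and the names of the deposited lists point to HPeak as the caller, with versions, settings and any input library not given in the sources used here. Every library has its own list from the authors. Each deposited row holds, without a header, chromosome, start, end, length and offset in bp, a height (a signal that is never negative) and a negative score, which no source used here defines and no comparison used. Heights in the authors' EED lists can be written as whole numbers less whole multiples of a constant of the library, within 2e-06. Numbers above those of the autosomes were taken to be X and Y, an assumption.

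From these lists, overlaps (at least 1 bp), gaps, groups (10 kb), exact conditional intervals for ratios, Clopper-Pearson intervals for shares and Newcombe intervals for differences were computed with Python 3.11.15, numpy 2.4.6, pandas 2.3.3 and scipy 1.17.1. Figures used matplotlib 3.10.9. The overlap code was tested on simulated data. Regions were named by rule: the 5 longest control peaks, the 5 tallest kept, lost, residual and new peaks, the 3 largest groups per list, and the 3 chromosomes with the highest and the 3 with the lowest ratio. The 1-Mb bins, the fourth control group and the closer look at chromosome 14 were picked with their values in view. The peaks, rules and definitions were chosen with earlier results of these data known. Promoters and gene lists are not analysed here, because no hg19 annotation was used. Read totals are unknown, so precision rests on the number of peaks. Alternatives were other overlap rules, distances, height limits, merging, and leaving out sex chromosomes, chromosome 14 or high-signal windows.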

Additional observations from a re-analysis of the deposited data

How the results depend on the processing

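No paired analysis was possible because each group has 1 library and the labels carry no replicate numbers. Depth is unknown, and no spread between cultures can be given. Of 70 alternatives of the main results, 37 stayed within the counting interval (for counts, within 1.5 times), and none of the kept-minus-lost differences changed sign. The cause of the other shifts was not tested. With a height limit at the median of the control list, the data gave a ratio of 0.140, a kept share of 8.32% and a residual share of 61.3%. Covered length in place of number gave a ratio of 0.0929. Without chromosome 14, chosen after seeing the data, the ratio was 0.0942 and the kept share 5.09%. An overlap of at least 50% of the peak left 3.56% kept, and a gap of at most 1000 bp gave 7.88% kept and 63.9% residual. The tallest control peaks, taken in the number of knockdown peaks, had a kept share of 28.6%, a median length of 300 bp, an offset of 58.7%, a neighbour within 10 kb in 30.5% and a place in groups of 3 or more in 15.01%. Without high-signal windows, 32.7% of knockdown peaks had such a neighbour and 20.4% were in such groups. At 5 kb a neighbour was found for 29.9% of knockdown and 33.1% of control peaks, and at 50 kb for 54.3% and 71.7%. Groups then held 18.4% of knockdown and 15.3% of control peaks at 5 kb, and 40.9% and 57.0% at 50 kb, so the order of the lists in grouping depended on the distance. With 50% overlap, added later, kept peaks had a median height of 44. Kept minus lost in percentage points was 29.7 for uH2A mouse, 30.3 for RING1A and 52.5 for BMI1 with the 1000-bp gap, and 31.5 for RING1B and 13.2 for H3K27me3 with 50% overlap. Without high-signal windows it was 33.8 for RING1B and 11.4 for H3K27me3, and without peaks of height 0, added later, 52.8 for BMI1. Of 75 kept or lost calls of named regions under other overlap rules, 71 were as reported. Under 50% overlap the longest control peak was not kept and chr1:121484551-121485375 was not residual, and with the 1000-bp gap chr16:1787826-1789425 and chr7:61970201-61970500 became shared.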

Other observations

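The heights in the EED lists carry a fine structure. All 1372 knockdown and all 13082 control heights could be written as a whole number less a whole number of equal steps, with a constant for each library, within 2e-06 and with at most 400 steps tried. At that tolerance the steps tried cover at most 0.160% of the possible fractional parts. Knockdown heights had no step in 28.4% of peaks (26.1 to 30.9) and at least 5 steps in 16.0% (14.1 to 18.0). Control heights had no step in 25.8% (25.01 to 26.5) and at least 5 steps in 7.92% (7.46 to 8.40). Kept peaks had at least 5 steps in 19.8% of cases (17.0 to 22.8) and lost peaks in 7.19% (6.74 to 7.66). Inside high-signal windows 53.8% of knockdown peaks and 22.9% of control peaks had at least 5 steps, and outside them 13.6% of knockdown peaks and 7.75% of control peaks. No source used here says what the steps stand for.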
